A study of Homo sapiens with 6 samples.

Results

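A set of 10 amino acid carriers of the plasma membrane was followed in MiaPaCa-2 cells under glucose withdrawal. They are SLC3A2, SLC7A11, SLC7A5, SLC43A1, SLC7A1, SLC1A4, SLC1A5, SLC38A1, SLC38A2 and SLC6A9, chosen by name for the cystine, neutral, cationic and glycine transport they carry out, many of them as known targets of ATF4. This set and the gene lists below were chosen with earlier results of these data known. Their counts set against all genes are therefore not independent of the choice. All 10 were found among the 60668 genes of the table. MiaPaCa-2 is an established human line of pancreatic ductal adenocarcinoma (PDAC), with no edit named in the labels, and the only line sequenced here. Cells were held for 48 h in DMEM with 25 mM glucose (control, 3 libraries) or with 2.5 mM glucose (low glucose, 3 libraries), and strand-specific RNA-seq was performed on independent biological replicates. In the labels, the titles of 3 samples and the study name a control, although the treatment protocol of every sample reads 2.5 mM. The general culture methods list glutamine in the standard medium and none in the low-glucose medium, made from glucose-free DMEM, while the recipes of some other low-glucose assays include it. Which of these the sequenced cells had is not stated, and a difference in amino acids between the media cannot be told apart from that in glucose.

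Amino acids cross the plasma membrane through families of solute carriers. Some exchange one amino acid for another, some pull it in with sodium, and others, such as SLC43A1, do neither. SLC3A2 (4F2hc) is a heavy chain that does not transport by itself: it binds a light chain such as SLC7A11 or SLC7A5 and takes it to the cell surface. When amino acids run short or the endoplasmic reticulum is stressed, phosphorylation of eIF2α favours translation of the transcription factor ATF4, which is known to activate genes of amino acid uptake and synthesis through a composite C/EBP-ATF response element.

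The core of that element is searched for here as the letters TGATGNAA on both strands, where N is any base. The windows searched are the promoters of RefSeq (GRCh38.p14), each from 250 bases before to 50 bases after a transcription start. Of the 10 transporters 9 had at least 1 window in that table, 16 windows in all, and SLC7A11 had no entry. The core was present in 5 of these 16 windows (31.2%), 1 each for 5 transporters, whereas 1270 of all 35116 promoters held it (3.62%). The stricter core TGATGCAA, which is contained in the first, was present in 2 of the 16 windows (12.5%) and in 304 of all promoters (0.866%). Many of the 10 were chosen as known targets of ATF4, so neither share is independent of the choice. The matches are printed on the strand of their gene, 5′ to 3′, with the core in capitals, because these transporters are grouped by their link to ATF4. ASNS and CHAC1, which are not transporters but textbook targets of ATF4, are set beside them as a reference.
SLC1A4, chr2:64989381-64989410, plus strand: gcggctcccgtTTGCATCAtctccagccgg
SLC1A5, chr19:46784893-46784922, minus strand: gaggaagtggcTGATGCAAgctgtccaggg
SLC7A1, chr13:29595663-29595692, minus strand: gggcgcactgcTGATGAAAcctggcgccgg
SLC38A1, chr12:46266502-46266531, minus strand: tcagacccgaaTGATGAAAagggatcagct
SLC3A2, chr11:62881725-62881748, plus strand: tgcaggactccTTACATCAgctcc
ASNS, chr7:97872458-97872487, minus strand: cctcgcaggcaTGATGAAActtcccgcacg
CHAC1, chr15:40953251-40953280, plus strand: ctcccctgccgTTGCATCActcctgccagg

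In SLC1A4, SLC3A2 and CHAC1 the core lies on the strand opposite to the gene, so its reverse complement is printed. The SLC1A4 core starts 7 bases before an alternative start, and the window at the first start of the gene held no match. The core lies in a non-coding exon stretch of the MANE Select transcript, the reference transcript agreed between RefSeq and Ensembl. The SLC7A1 core starts 8 bases after its start, also in a non-coding exon of the MANE Select transcript. The SLC1A5 core lies 97 bases before an alternative start, in the exon of 1 of 6 annotated transcripts and in an intron of the MANE Select transcript. The SLC38A1 core begins 4 bases before an alternative start, runs across it and lies in no annotated exon. The SLC3A2 core begins 38 bases after an alternative start, in an exon of 7 of 41 transcripts and in coding sequence of 2. It lies in an intron of the MANE Select transcript, and the window searched ends soon after the core. The windows of SLC43A1, SLC6A9, SLC38A2 and SLC7A5 did not hold these letters. With a match, SLC1A4, SLC3A2 and SLC38A1 rose in the comparison below, and SLC1A5 and SLC7A1 did not pass. Without a match, SLC43A1, SLC6A9 and SLC38A2 rose, and SLC7A5 did not pass. Whether the core bears on the response was not tested. A match is a run of letters and not a measured binding site, and counts per gene do not show which start was used.

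Of the 10 transporter mRNAs 7 rose under low glucose and 0 fell. The rises ran from 1.32-fold for SLC38A1, a sodium-coupled neutral amino acid transporter, to 3.33-fold for SLC43A1, a facilitative carrier of large neutral amino acids. SLC1A4, SLC6A9 and SLC7A11 rose by 2.47-fold to 2.99-fold and the heavy chain SLC3A2 by 1.80-fold. SLC7A5, SLC7A1 and SLC1A5 had means 1.08 to 1.18 times those of control and did not pass the test. The test was limma on log2(normalized count + 1), two-sided, with Benjamini-Hochberg adjustment over the 21101 genes that had a mean of at least 1 and a threshold of 0.05, and a log2 fold change is on this scale. All 10 log2 fold changes were above 0, so that 0 were lower at an unadjusted p either, and 0 were lower in edgeR or DESeq2. By this test 14.7% of all genes were higher in low glucose, 16.2% were lower and 30.9% changed in either direction. In 7 of the 10 the values of both conditions did not overlap, with low glucose higher, as for 22.1% of all genes. The values are averages over a culture, in which more RNA per cell and more cells that carry it cannot be told apart.

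**Figure D1:**
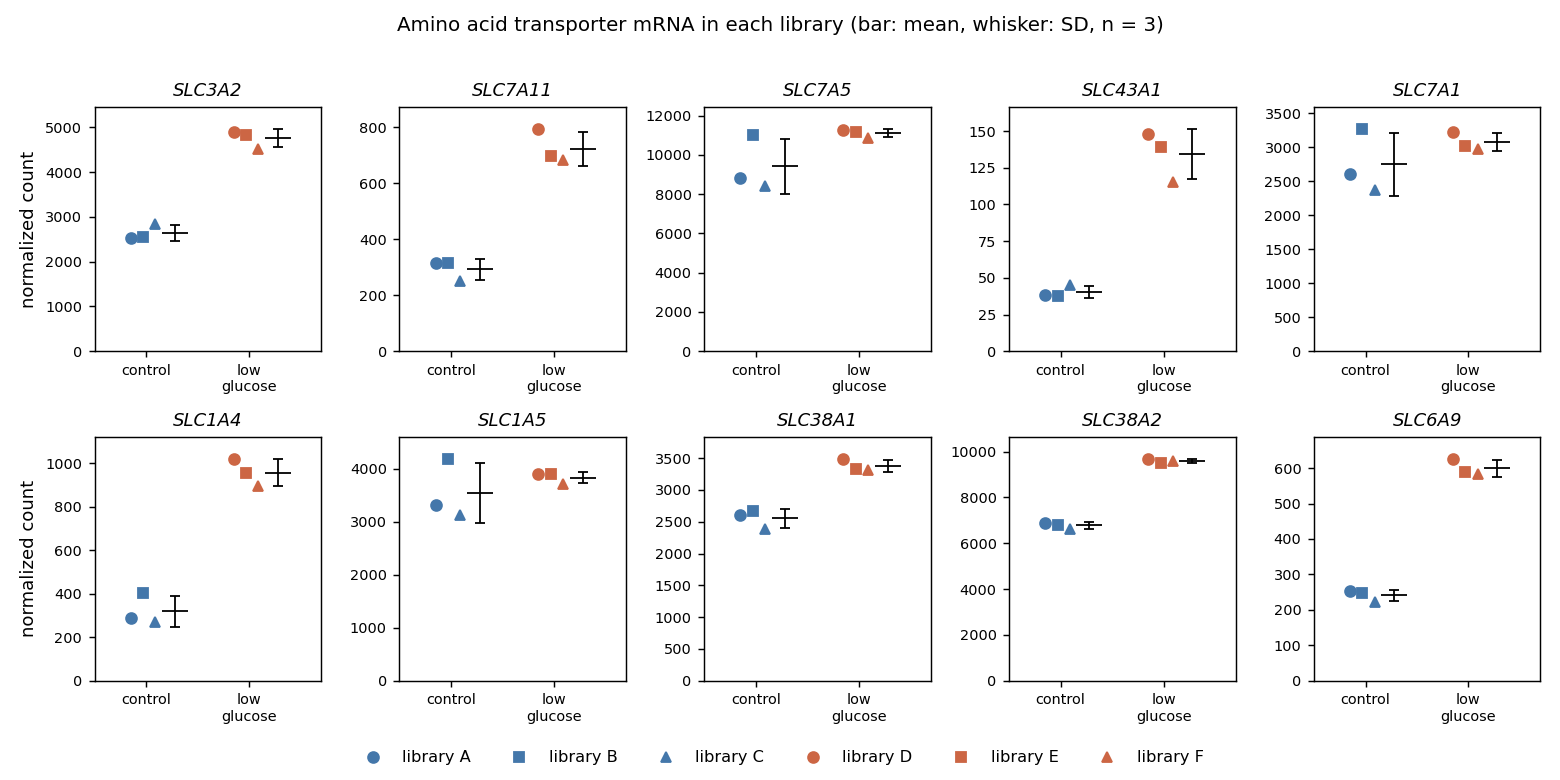
Normalized count (vertical axis, from 0, a scale of its own in each panel) of the 10 transporters in the 3 control libraries (blue, A to C) and the 3 low-glucose libraries (orange, D to F), with the mean as a bar and the SD as a whisker. The conditions do not overlap in 7 panels, whereas in SLC7A5, SLC7A1 and SLC1A5 control library B lies among or above the low-glucose libraries.

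Libraries are named by letter in the order of the table, A to C for control and D to F for low glucose. They held 9741183 to 13733477 reads on genes, and the deposited values are these reads after scaling with 1 size factor per library, called normalized counts here. The labels name the columns of 2 libraries only, D and E, and the other 4 were placed by the run of 3 column names that each condition has. Replicates differed by more than counting noise, which gives a chi-square per gene of about 1. It was 1.90 to 2.89 between low-glucose libraries and 4.63 to 18.9 between control libraries, highest between B and C. As a check of the labels, the glucose-induced gene TXNIP fell by 1.12 (log2) with an adjusted p of 2.38e-07 from limma. KRT8, KRT18, KRT19 and VIM were expressed, CDKN2A (deleted in this line) and the acinar and islet markers PRSS1, CPA1, CELA3A, INS and GCG had no read in any library, and EPCAM and CDH1 had a mean normalized count of at most 1.09 in either condition.

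SLC3A2 (ENSG00000168003, chr11:62856004-62888880 of hg38, plus strand) encodes the heavy chain. Its normalized count was 2527, 2545 and 2845 in control libraries A, B and C and 4906, 4841 and 4528 in low-glucose libraries D, E and F. The conditions did not overlap, and the gap between them was several times the range within either. The mean was 2639 ± 179 in control and 4758 ± 202 in low glucose (SD, n = 3 each). Low glucose against control gave a log2 fold change of 0.85 (SE 0.0772, 95% interval 0.69 to 1.02, adjusted p = 2.10e-06 from limma).

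SLC7A11 (xCT, ENSG00000151012, chr4:138164097-138242349, minus strand) is the light chain that brings in cystine, the source of cysteine for glutathione, in exchange for glutamate. The 3 control libraries had normalized counts of 314, 315 and 250.4 and the low-glucose libraries 794, 696 and 682. The lowest low-glucose library was above the highest control library by more than the range within either condition. The log2 fold change was 1.31 (SE 0.108, 95% interval 1.08 to 1.54, adjusted p = 8.58e-07 from limma), and 5.40% of all genes tested had a larger one. Between 234 and 283 reads lie behind the control values and between 705 and 900 behind the others. SLC7A11-AS1, a non-coding gene on the other strand, shares 865 bases of exon with SLC7A11 and also had more reads in low glucose (72 to 108) than in control (23 to 30). The strand setting of the counting is not stated, so that reads of both genes cannot be told apart in the shared stretch. The reads given to SLC7A11-AS1 were at most 12.8% of those of SLC7A11 in any library.

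SLC7A5 (LAT1, ENSG00000103257, chr16:87830023-87869507, minus strand) is the light chain that exchanges large neutral amino acids such as leucine for glutamine. Normalized counts of SLC7A5 were 8818, 11027 and 8434 in control and 11284, 11143 and 10875 in low glucose. Control library B lay within the low-glucose values, while A and C were lower than all of them. This gave a log2 fold change of 0.25 (SE 0.0978, 95% interval 0.04 to 0.46), and the adjusted p from limma was 0.0710. Without library B it was 0.36 with an adjusted p of 3.05e-06 from limma, and without library C it was 0.17 with an adjusted p of 0.147. SLC7A5 also passed with scaling by library size (0.33, adjusted p = 0.0128 from limma), with TMM factors (0.26, adjusted p = 0.0495 from limma) and in edgeR (0.26, adjusted p = 0.0488), but not in DESeq2 (adjusted p = 0.0584). The non-coding gene ENSG00000260466 on the other strand shares 271 bases of exon with SLC7A5 and had at most 9.14% of its reads, and the pseudogene SLC7A5P1 had at most 55 reads in any library.

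SLC43A1 (LAT3, ENSG00000149150, chr11:57484534-57515780, minus strand) carries leucine and other large neutral amino acids without a heavy chain and without exchange. Its normalized count was 38.1, 37.9 and 44.9 in control and 148, 139 and 115 in low glucose. It was the least abundant of the 10, with 34 to 42 control reads against 141 to 154, and the conditions stood far apart. The log2 fold change of 1.71 (SE 0.173, 95% interval 1.34 to 2.08, adjusted p = 5.79e-06 from limma) was the largest among the 10, and 2.35% of all genes tested had a larger one. Its interval overlapped those of SLC1A4, SLC7A11 and SLC6A9, so the order of these 4 is not set.

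SLC7A1 (CAT1, ENSG00000139514, chr13:29509414-29595688, minus strand) takes up arginine, lysine and ornithine. Its normalized count was 2608, 3265 and 2375 in control and 3230, 3025 and 2972 in low glucose. Control library B was higher than each low-glucose library, whereas A and C were lower than each. SLC7A1 thus had a log2 fold change of 0.17 (SE 0.101, 95% interval -0.04 to 0.39, adjusted p = 0.215 from limma). Without library B it was 0.30 with an adjusted p of 2.63e-04 from limma, and without library C it was 0.08 with an adjusted p of 0.553.

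SLC1A4 and SLC1A5 are sodium-dependent exchangers of small neutral amino acids. SLC1A4 (ASCT1, ENSG00000115902, chr2:64988477-65023865, plus strand) prefers alanine, serine and cysteine. Counts after normalization were 288, 402 and 270 in control and 1022, 954 and 897 in low glucose. Library B was again the highest of the control libraries, but all 3 lay far under the low-glucose libraries. SLC1A4 had a log2 fold change of 1.60 (SE 0.127, 95% interval 1.33 to 1.87, adjusted p = 6.16e-07 from limma), and it was 1.78 without library B. SLC1A5 (ASCT2, ENSG00000105281, chr19:46774883-46788594, minus strand) is the main glutamine exchanger of many tumour cells. Its normalized count was 3312, 4191 and 3121 in control and 3902, 3897 and 3712 in low glucose. Library B was above all low-glucose libraries, and A and C were below them. The log2 fold change was 0.13 (SE 0.0981, 95% interval -0.08 to 0.34, adjusted p = 0.359 from limma). It was 0.25 without library B (adjusted p = 9.42e-04 from limma), 0.08 without library A (0.648) and 0.04 without library C (0.755). On the other strand, the non-coding gene ENSG00000275719 shares 780 bases of exon with SLC1A5 and had reads that came to at most 30.6% of those of SLC1A5.

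SLC38A1 and SLC38A2 are sodium-coupled importers of glutamine, alanine and other small neutral amino acids, and both genes lie on the minus strand of chromosome 12. The normalized count of SLC38A1 (SNAT1, ENSG00000111371, chr12:46183063-46270017) was 2606, 2672 and 2385 in control and 3490, 3335 and 3313 in low glucose. The change on the log2 scale was 0.40 (SE 0.0747, 95% interval 0.25 to 0.56, adjusted p = 8.60e-04 from limma). All low-glucose libraries were above all control libraries, by a margin larger than the range within either condition. The normalized count of SLC38A2 (SNAT2, ENSG00000134294, chr12:46358188-46372773), whose protein is also known to increase when amino acids are scarce, was 6893, 6809 and 6627 in control and 9685, 9484 and 9576 in low glucose. On the log2 scale it rose by 0.50 (SE 0.0732, 95% interval 0.34 to 0.66, adjusted p = 1.34e-04 from limma). Relative to its mean it had the tightest replicates of the 10 in low glucose, with a mean of 9582 ± 100.4 (SD, n = 3) against 6776 ± 136 (SD, n = 3) in control.

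SLC6A9 (GlyT1, ENSG00000196517, chr1:43991500-44031467, minus strand) takes up glycine with sodium and chloride. Normalized counts of SLC6A9 were 252, 249 and 224 in control and 626, 588 and 583 in low glucose. The libraries of each condition lay close together, and the conditions did not overlap. The log2 fold change was 1.31 (SE 0.0933, 95% interval 1.11 to 1.51, adjusted p = 2.45e-07 from limma), with 5.38% of all genes tested above it. CCDC24 on the other strand shares 413 bases of exon with SLC6A9. It also had more reads in low glucose (74 to 83) than in control (20 to 37), at most 17.7% of those of SLC6A9. Reads of both genes cannot be told apart in the shared stretch, for the same reason as with SLC7A11-AS1.

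**Figure D2:**
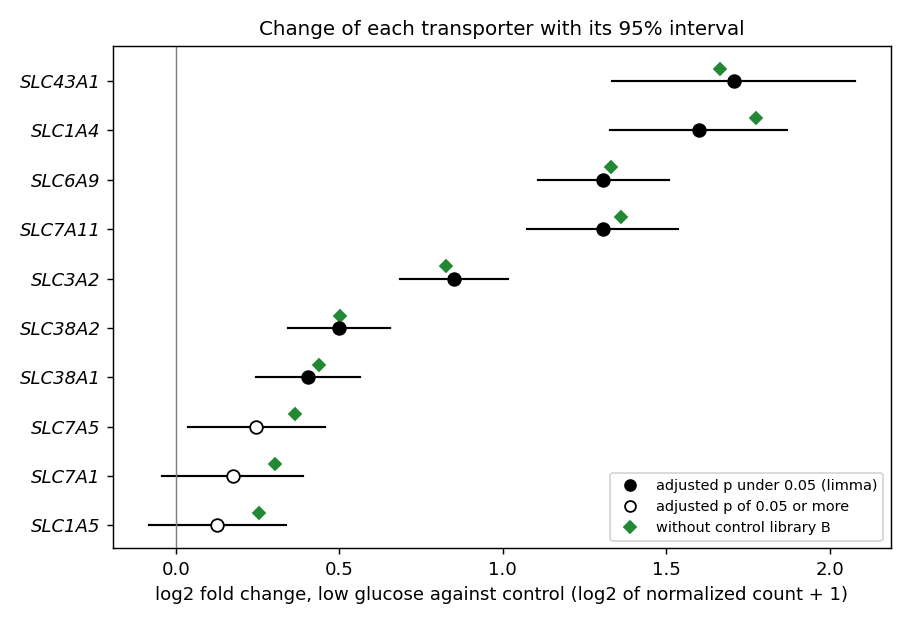
Log2 fold change of each transporter, low glucose against control, on log2(normalized count + 1) (horizontal axis), with its 95% interval from limma as a line. Filled points passed the threshold and open points did not, and green diamonds give the value without control library B, which is 0.25 to 0.36 for the 3 open points.

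The calls of the 3 that did not pass turned on control library B and on the scaling. For SLC7A5 they also differed between tools, but edgeR used TMM factors, with which SLC7A5 passed in limma too. The value in library B was 1.28 to 1.44 times the mean of libraries A and C for SLC7A5, SLC7A1, SLC1A5 and SLC1A4, and 0.913 to 1.12 times for the other 6. Without B, which is singled out here after its values were seen, 10 of 10 transporters rose (limma), where 16.6% of all genes were higher. Without any 1 of the other 5 libraries the count was 7. With quantile normalization of all 6 libraries 10 of 10 also rose, against 13.7% of all genes. The count was 8 with scaling by library size (18.6% of all genes higher), with TMM factors (15.3%) and in edgeR (20.9%), and 7 in DESeq2 (8.46%). What sets library B apart was not tested. The other 7 rose under each of 15 alternatives.

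Related transporters were next compared in the size of their response. A set of 6 pairs was compared by the log2 ratio of their normalized counts within each library, which does not depend on the scaling of the library, with exact permutation tests (two-sided, n = 3 against 3), whose smallest possible p is 0.1. For SLC1A4 over SLC1A5 the ratio was -3.47 ± 0.0843 in control and -2.003 ± 0.0619 in low glucose (SD, n = 3), a difference of 1.47, or 2.77-fold. For SLC43A1 over SLC7A5, which also carries leucine, low glucose minus control was 1.46. It was 0.45 for SLC7A11 over its partner SLC3A2, and 1.06 for SLC7A11 over SLC7A5, the light chain with which it shares that partner. For SLC7A5 over SLC3A2 it was -0.61. Without control library C the difference for SLC7A11 over SLC3A2 was 0.29. These 5 differences showed no overlap between the conditions and the smallest p that the exact test allows (p = 0.1, adjusted p = 0.12 over 6 pairs), so that none could pass 0.05. For SLC38A2 over SLC38A1 the difference was 0.09, the conditions overlapped and the exact permutation p was 0.2, and from leaving out each library in turn it ranged from 0.07 to 0.13.

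SLC3A2 was also set against the light chains that can bind it, which are SLC7A5, SLC7A6, SLC7A7, SLC7A8, SLC7A10 and SLC7A11. This description was chosen after the values were seen and has no test. Levels were compared as reads per kilobase of MANE Select transcript and library depth (RPKM). The level of SLC3A2 divided by the summed level of the 6 light chains was 0.624, 0.514 and 0.733 in control libraries A, B and C and 0.957, 0.961 and 0.912 in D, E and F. Every low-glucose library had a higher ratio than any control library, but its size depended on the lengths used. With the union of annotated exons in place of the MANE Select transcripts it was 0.194 ± 0.0344 in control and 0.293 ± 0.0082 in low glucose (SD, n = 3), and the conditions again did not overlap. SLC7A11 made up 1.52%, 1.25% and 1.26% of the light chain sum in control and 3.03%, 2.7% and 2.68% in low glucose. SLC7A5 made up most of it in both conditions, 90.7% ± 1.27 in control and 91.1% ± 0.424 in low glucose (SD, n = 3). The share of SLC7A6 (y+LAT2), an exchanger of cationic for neutral amino acids, was 7.66% ± 1.02 in control and 5.82% ± 0.482 in low glucose (SD, n = 3).

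**Figure D3:**
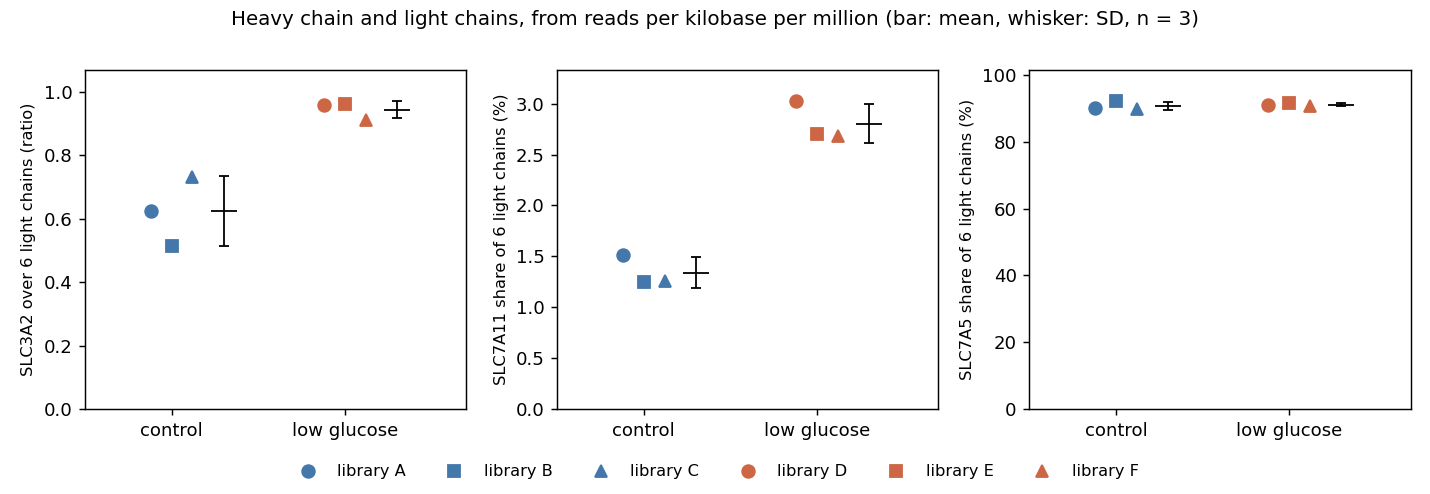
SLC3A2 over the sum of 6 light chains (left, a ratio of RPKM), and the share of SLC7A11 (middle) and of SLC7A5 (right) in that sum (%), with MANE Select lengths, in each library, with the mean as a bar and the SD as a whisker (n = 3). The ratio lies at 0.514 to 0.733 in control (blue) and 0.912 to 0.961 in low glucose (orange), and the share of SLC7A11 is higher in all 3 low-glucose libraries, while that of SLC7A5 overlaps.

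In control the order by mean RPKM was SLC7A5 (187 ± 23.9), SLC38A2 (128 ± 3.13), SLC3A2 (127 ± 10.1), SLC1A5 (111 ± 15.6), SLC7A1 (33.9 ± 5.0), SLC38A1 (28.6 ± 1.36), SLC6A9 (6.82 ± 0.405), SLC1A4 (6.34 ± 1.29), SLC7A11 (2.75 ± 0.325) and SLC43A1 (1.45 ± 0.162; SD, n = 3). The neighbours SLC38A2 and SLC3A2, SLC3A2 and SLC1A5, and SLC6A9 and SLC1A4 overlapped between libraries, and the other neighbours did not. In low glucose SLC3A2 (242 ± 9.82) and SLC7A5 (234 ± 4.05) came first and overlapped, followed by SLC38A2 (192 ± 2.37) and SLC1A5 (128 ± 3.32; SD, n = 3). SLC7A1 (40.1 ± 1.78) and SLC38A1 (40.0 ± 1.15) overlapped. The 4 transporters of lowest level, SLC1A4 (20.1 ± 1.29), SLC6A9 (17.9 ± 0.716), SLC7A11 (7.19 ± 0.604) and SLC43A1 (5.12 ± 0.643; SD, n = 3), were also the 4 with the largest log2 fold changes. The place of SLC3A2 depended on the length used: with the union of its annotated exons (6392 bases) in place of the MANE Select transcript (1885 bases) it took place 4 of the 10 in both conditions.

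**Figure D4:**
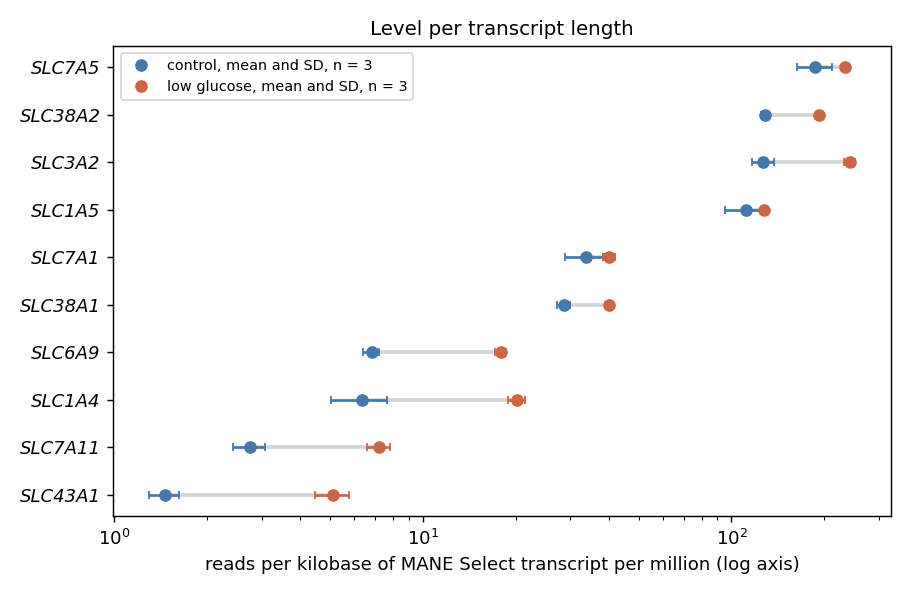
Mean level of each transporter in reads per kilobase of MANE Select transcript and sequencing depth (RPKM, horizontal axis, log scale) in control (blue) and low glucose (orange), with the SD as a whisker (n = 3) and a grey line between both means. The 4 transporters with control levels of 1.45 to 6.82 show the longest lines, and SLC1A5 and SLC7A1 the shortest.

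The other amino acid transporters of the plasma membrane moved in both directions. Of 28 such genes 12 had no read in any library and 14 could be tested, of which 1 rose and 3 fell. SLC3A1 (rBAT), the other heavy chain of the family, rose from 162 ± 25.2 to 250.3 ± 5.51 (normalized count, SD, n = 3), a log2 fold change of 0.64 (adjusted p = 0.00152 from limma). SLC43A2 (LAT4), the close relative of SLC43A1, fell by 0.81 (log2; adjusted p = 4.45e-05 from limma). SLC16A10 (TAT1), a carrier of aromatic amino acids, fell by 1.17 (adjusted p = 0.00528 from limma), and the taurine transporter SLC6A6 fell by 0.53 (adjusted p = 5.60e-04 from limma). Among genes with a mean normalized count of at least 10, 18.2% of all 15235 were higher and 22% were lower, with a median log2 fold change of -0.0023. On the same footing the 10 transporters had 7 higher, none lower and a median of 0.68, and the other plasma membrane transporters had 1 of 8 higher, 3 lower and a median of -0.13. Of the 30 promoter windows matched to these other transporters, 1 (3.33%) held the core TGATGNAA.

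Carriers of the lysosome and the mitochondrion moved in both directions, as genes did over the whole table. Of 20 genes 19 were tested, and 5 rose and 7 fell (limma). Of the 18 with a mean of at least 10, 27.8% were higher and 38.9% lower, where 18.2% and 22% of all such genes were. The median log2 fold change of the 18 was -0.10. The highest were SFXN3 (0.76), the lysosomal arginine sensor SLC38A9 (0.59), the mitochondrial glycine carrier SLC25A38 (0.57), SLC25A29 (0.52), which carries basic amino acids, and the cystine exporter of the lysosome CTNS (0.39). The lowest were the mitochondrial serine carrier SFXN1 (-0.83), SLC25A44 (-0.80), which carries branched-chain amino acids, the proton-coupled SLC36A1 (-0.66) and SLC36A4 (-0.54), and the aspartate-glutamate carrier SLC25A13 (-0.51). None of their 28 promoter windows held the core.

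ATF4 mRNA rose from 2433 ± 438 to 4946 ± 142 (normalized count, SD, n = 3), a log2 fold change of 1.04 (adjusted p = 7.66e-06 from limma). With ATF4 itself, 35 genes known as ATF4 targets other than transporters were counted. STC2 had no read. Of the other 34, all with a mean of at least 10, 30 rose and 1 fell, where 18.2% and 22% of all such genes did (limma). The median log2 fold change of the 34 was 0.97. The largest rises were those of the stress cytokine GDF15 (3.98), NUPR1 (3.34), DDIT3 (CHOP, 2.84), the mitochondrial folate enzyme ALDH1L2 (2.82) and ATF3 (2.77). The smallest were those of MTHFD2 (0.55) and SHMT2 (0.45), enzymes of mitochondrial one-carbon metabolism, and of the tRNA synthetases GARS1 (0.54) and NARS1 (0.20). ALDH18A1, the first enzyme of proline synthesis from glutamate, fell by 0.28 (adjusted p = 0.0141 from limma). ATF5 (0.12), XPOT (0.15) and WARS1 (0.16) did not pass and are named because they complete the list. Genes on the other strand of these were not looked up. Of 43 promoter windows of 28 matched genes, 8 (18.6%) held the core, those of ASNS and CHAC1 among them. These genes, too, were chosen as ATF4 targets.

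Of 10 genes that use cystine or keep glutathione, 5 rose and 0 fell (limma). Of the 9 with a mean of at least 10, 55.6% were higher and none lower, where 18.2% and 22% of all such genes were. The median log2 fold change of the 9 was 0.35. CHAC1, which degrades glutathione, rose by 2.14 and CTH, which makes cysteine from cystathionine, by 1.87 (log2), and both are also in the list of ATF4 targets. GCLC, the catalytic subunit of glutathione synthesis' first enzyme, rose by 0.82, CBS by 0.73 and the glutathione peroxidase GPX4 by 0.35. GCLM, the partner of GCLC, had means of 3117 in control and 3121 in low glucose and a log2 fold change of 0.00. GSS, GSR, TXNRD1 and GGT1 did not pass either. The count of lower genes in this list was also 0 at an unadjusted p under 0.05, in edgeR and in DESeq2.

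**Figure D5:**
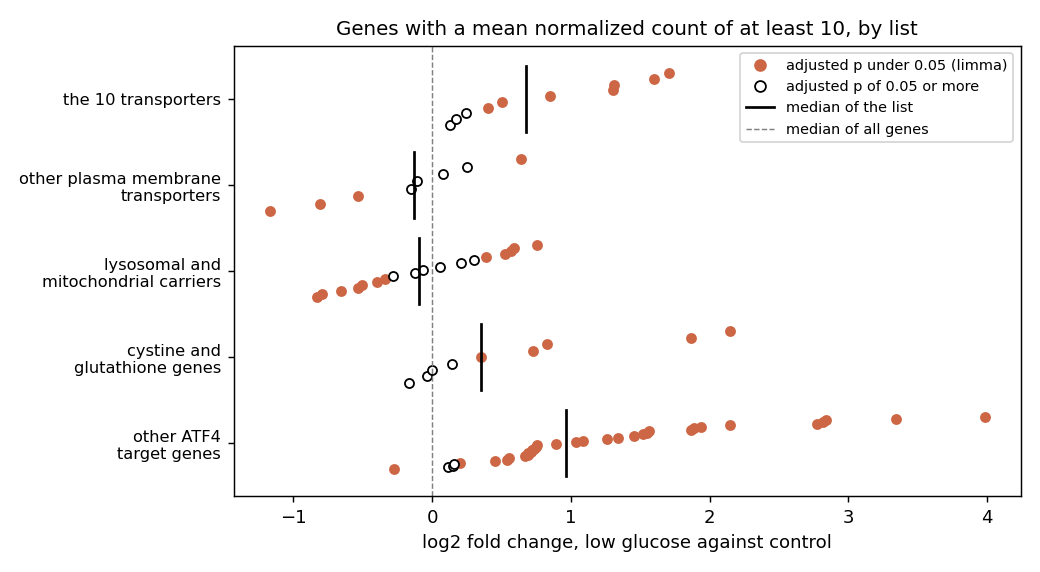
Log2 fold change, low glucose against control (horizontal axis), of each gene with a mean normalized count of at least 10, by list; filled points passed the threshold in limma, black bars are list medians and the dashed line is the median of all genes. The medians are 0.68 for the 10 transporters, -0.13 for other plasma membrane transporters, -0.10 for lysosomal and mitochondrial carriers, 0.35 for cystine and glutathione genes and 0.97 for other ATF4 targets.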

How the data were processed

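MiaPaCa-2 libraries (3 control, 3 low glucose) were analysed from 1 table. Per the labels and the methods, the authors trimmed reads with Trim Galore, mapped them to hg38 with STAR 2.7.0e and compared conditions with DESeq2. RSEM is listed among the software with no stated use, and the strand setting of the counting and its annotation are not given in the sources used here. What the authors deposited is a count signal, scaled per library with DESeq2's median-of-ratios size factors. All values (100%) came out as whole reads within 0.01 of a read once this scaling was undone, so reads were recovered. Control libraries had 9741183 to 10190154 reads, low-glucose libraries 10595408 to 13733477. The labels name the columns of 2 libraries, and 4 were assigned by the runs of column names. Identifiers were matched to Gencode v44 (99.4% of 60668).

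The 10 transporters and the gene lists were chosen with earlier results of these data known. Genes with a mean of at least 1 were compared as log2(value + 1), a pseudocount that understates changes of genes with few reads, with limma 3.58.1 (lmFit, eBayes with trend) in R 4.3.3, and pairs with exact permutation tests (scipy 1.17.1). Named are the 10 transporters, ATF4, DDIT3 and, per list, the 5 largest and 5 smallest log2 fold changes among called genes whose mean was 10 or more, besides genes that overlap or share sequence with a transporter or check the labels. ASNS and the list genes that did not pass were named outside this rule, after their values were seen. Alternatives were other scalings (library size, TMM, quantile), no filter or a mean of at least 10, a pseudocount of 0.1, no variance trend, edgeR 4.0.16 (quasi-likelihood) and DESeq2 1.42.0 on the recovered reads, and each library left out. Union exon length (for the order of levels and the heavy to light chain ratio) was added after seeing the data, as was overlap without library B, which is not used. Tests were first run on simulated data. Python 3.11.15, pandas 2.3.3, numpy 2.4.6 and matplotlib 3.10.9 were used. Some genes that overlap a transporter or belong to the marker lists are not reported here.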

Additional observations from a re-analysis of the deposited data

How the results depend on the processing

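No transporter changed direction under any alternative. The number of transporters higher in low glucose ranged from 7 to 10 with all libraries kept and from 7 to 10 with each library left out in turn, and none was lower in any. SLC7A5 passed under 5 of 15 alternatives, and SLC7A1 and SLC1A5 under 2 each (without control library B, and quantile normalization). The genes past the threshold over the whole table numbered 4090 without a variance trend against 6528, and 4319 (without library D) to 7251 (without library B) with 1 library left out. Scaling moved their split: 3111 were higher and 3417 lower as deposited, and 3935 and 2647 with library size. The median log2 fold change of 13769 genes with a mean of at least 20 was -0.02 as deposited, 0.06 with library size, -0.01 with TMM and -0.03 with quantiles, a shift of less than 0.1. Other plasma membrane transporters higher in low glucose numbered 3 with library size and 2 without a filter or without a variance trend, against 1, and 1 to 2 with 1 library left out (2 without B, C or D). Organellar carriers that rose numbered 3 (without D or F) to 6 with 1 library left out, against 5. Cystine and glutathione genes that rose numbered 4 with a pseudocount of 0.1 or without a variance trend, against 5. They numbered 6 with library size or quantiles, and 4 (without A, D, E or F) to 5 with 1 library left out. The 1 ATF4 target that fell was not called with library size, quantiles or no variance trend (0 each), and 0 to 1 fell with 1 library left out (0 without A, D or E). The cause of these differences was not tested. With union exon length, 7 of 10 transporters kept their place by level in control and 6 of 10 in low glucose.

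No paired analysis was possible because replicate numbers are known for 2 columns only, both of low glucose. With 3 libraries per condition an exact permutation test cannot go below 0.1. The limma p-values set each difference of means against a spread between these libraries that is moderated over all genes. SLC43A1 rests on 34 to 42 reads in control, and its interval is the widest of the 10.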

Other observations

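Outside the transporters, markers chosen for the cell type also moved. KRT8 fell by 1.01, KRT18 by 0.74 and KRT19 by 0.83 (log2), while VIM, the intermediate filament of mesenchymal cells, rose by 0.42 (adjusted p = 0.00819 from limma). KRT7 was near the floor, with a mean normalized count of 4.73 in control and 8.83 in low glucose. Its log2 fold change of 0.85 did not pass (adjusted p = 0.211 from limma). The summed normalized count of 3 endothelial markers lay between 157 and 192 in control libraries and between 9.88 and 12.1 under low glucose, nearly all of it CDH5, which fell by 3.92 (adjusted p = 1.74e-08 from limma). That of 4 fibroblast markers lay between 2651 and 2882 in control libraries and between 1921 and 1952 under low glucose, most of it COL1A2, with DCN at 0 in all libraries. Of the leukocyte markers, CD14 had a mean normalized count of 33.6 ± 12.9 in control and 14.2 ± 6.02 in low glucose (SD, n = 3), and PTPRC and CD3E had no read in any library. The part of these in the results on transporters was not tested.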
